A study of Mus musculus with 7 samples.

Results

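The core circadian clock was followed through 10 of its genes in the mouse duodenum, Arntl, Clock, Npas2, Per1, Per2, Per3, Nr1d1, Nr1d2, Dbp and Ciart. They were picked by gene symbol. Each symbol matched 1 row, giving 10 of the 47069 genes in the deposited table, and all 10 passed the filter on low counts. The RNA came from the duodenum of 7 male mice aged 8 to 12 weeks. They are C57BL/6 per sample and C57BL/6J in the text on the whole series. The control group of 4 mice received vehicle, 0.5% carboxymethylcellulose. The treated group of 3 mice received T09 at 50 mg/kg/day. T09 is T0901317, a synthetic agonist of the liver X receptors (LXR), the nuclear receptors that respond to oxysterols. None of the sources used here states the number of days of dosing, the hour at which tissue was taken or the lighting schedule.

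The circadian clock is a transcriptional feedback loop that runs in nearly every cell. BMAL1, the product of Arntl, pairs with CLOCK or with its relative NPAS2 and activates genes through E-boxes, among them the Per, Cry and Nr1d genes, Dbp and Ciart. PER and CRY proteins, and CIART (also called CHRONO), then restrain that activator. The REV-ERB receptors, encoded by Nr1d1 and Nr1d2, repress Arntl through the ROR response element (RORE), which the ROR receptors activate. DBP acts through D-boxes, which Per genes can carry. In mouse tissues the transcripts of Arntl and Npas2 peak at about the opposite time of day to those of Nr1d1 and Dbp, and in the intestine the clock times nutrient transport and cell division.

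The promoters of the members carry these elements unevenly, and those with a match are shown. RefSeq promoter windows (GRCm38.p6) were found for 9 of the 10 members, 13 windows in all, each 250 bases before to 50 after an annotated start. Both strands were searched for the E-box CACGTG, the variant E-box CACGTT, the RORE core TAGGTCA, and the D-boxes TTATGTAA and TTACGTAA. Of 32851 mouse promoter windows, 7.15% held the E-box, 4.68% the variant, 2.61% the RORE core and 1.06% a D-box. Among the members there were 8 matches, none overlapping another: 3 E-boxes in Ciart, 1 E-box in Per1, 2 D-boxes in Per3, 1 variant E-box in Nr1d1, read as AACGTG on the gene's strand, and 1 RORE core in Arntl. Capitals mark the matches. The coordinates are chr3:95882245-95882366 for Ciart (minus strand), chr4:151044794-151044892 for Per3 (minus strand), chr11:69098761-69098810 for Per1 (plus strand), chr11:98775378-98775427 for Nr1d1 (minus strand) and chr7:113207530-113207559 for Arntl (plus strand). The Arntl match lies 31 bases after the start of the second of its 2 windows and the others lie upstream of their start.
Ciart: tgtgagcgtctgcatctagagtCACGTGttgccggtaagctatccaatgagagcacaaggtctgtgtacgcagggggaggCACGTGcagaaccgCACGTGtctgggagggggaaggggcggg
Per3: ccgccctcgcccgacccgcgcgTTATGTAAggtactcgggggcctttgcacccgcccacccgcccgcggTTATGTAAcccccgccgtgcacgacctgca
Per1: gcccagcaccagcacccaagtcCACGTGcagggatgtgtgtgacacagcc
Nr1d1: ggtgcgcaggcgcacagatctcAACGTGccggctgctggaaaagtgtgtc
Arntl: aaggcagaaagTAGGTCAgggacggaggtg
A match is a stretch of letters and was not tested as a binding site, and a window without a match says nothing of elements elsewhere in the gene.

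The libraries held between 15395535 and 20494485 counts. The treatment was visible in Srebf1, an LXR target, whose normalised read count (CPM, counts scaled to a common library size) averaged 145 ± 25.8 in the vehicle group (SD, n = 4). In the T09 group it averaged 1193 ± 70.2 CPM (SD, n = 3). Duodenal epithelium markers, 13 genes including villin (Vil1), Pdx1 and Gata4, were present in every library and took 4.04% to 4.40% of counts with vehicle and 4.22% to 4.30% with T09. Of these, 2 were called higher, Fabp1 (log2 fold change 0.88, edgeR adjusted p 0.0167) and Fabp2 (0.81, adjusted p 0.0326), and none lower, while Vil1, Epcam and Krt20 lay below the vehicle range in every T09 library (log2 fold changes of -0.30, -0.28 and -0.26). Smooth muscle markers took 0.162% to 0.261% with vehicle and 0.0455% to 0.0734% with T09, with all 12 listed genes called lower and none at 0. Enteric neuron and glia markers took 0.00201% to 0.00375% and 0.000820% to 0.000864%, with 5 of 9 tested genes called lower. Adipocyte markers took 0.0170% to 0.0438% with vehicle and 0.0108% to 0.0148% with T09. Cidec gave the most counts of that list in every library, 1842 to 3748. Adipoq, of the same list, had 4, 15, 31 and 479 counts in vehicle replicates 1 to 4 and 0, 0 and 8 in T09 replicates 1 to 3. Car3 had 34, 133, 164 and 1598 counts with vehicle and 5, 9 and 22 with T09. Fibroblast markers took 0.00790% to 0.0137% with vehicle, 0.0117% in T09 replicate 1, which lay inside that range, and 0.00403% and 0.00272% in T09 replicates 2 and 3, which lay below it. None of the tested genes of adipocytes, fibroblasts, T cells, macrophages, B cells or pancreatic acinar cells was called. Some listed genes were filtered out and could not be called: 1 of 6 was tested for acinar cells, 6 of 7 for adipocytes and 5 of 6 for B cells. These differences stand beside every comparison below, and their part in the clock values was not tested. In a bulk sample, fewer cells of a type and less RNA per cell cannot be told apart.

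By edgeR's quasi-likelihood test, 0 of the 10 members had an adjusted p under 0.05, where 614 of 14250 genes tested did (4.31%). With limma-voom 0 members were called (3.73% of all genes), and with DESeq2 1, namely Arntl (7.66% of all genes). At an unadjusted p under 0.05 edgeR listed 4 members, Arntl, Per3, Nr1d2 and Ciart, against 17.9% of all genes. The median log2 fold change of the members was 0.11, against 0.02 over all genes, and the median of its absolute size was 0.30 against 0.19. The groups did not overlap for 1 member, Arntl, against 16.8% of all genes, of which 9.69% were non-overlapping with T09 lower. The 10 genes together took 0.0458% to 0.0514% of counts with vehicle and 0.0445% to 0.0544% with T09.

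**Figure D1:**
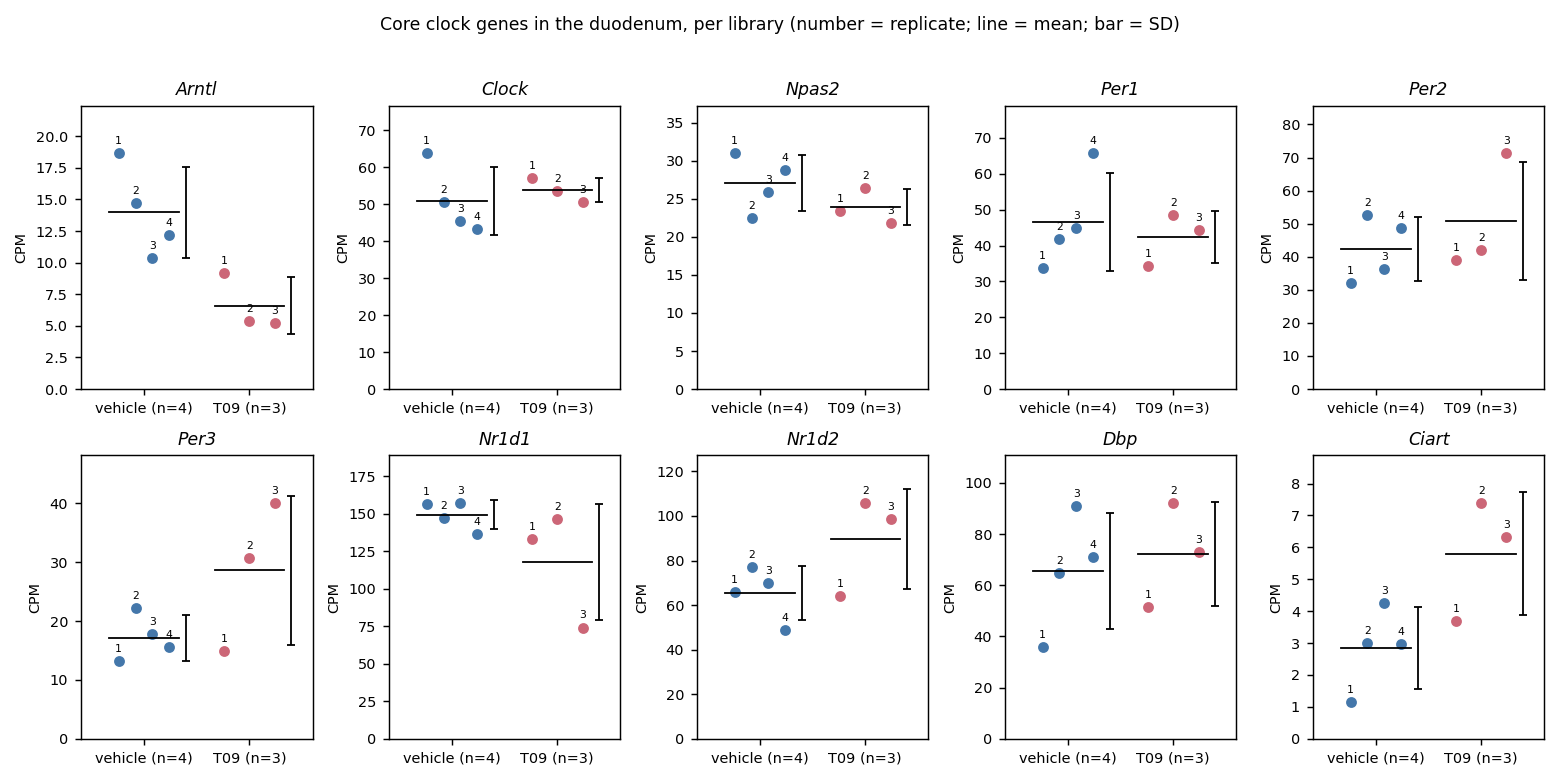
CPM of the 10 core clock genes in each library, vehicle in blue (n = 4) and T09 in red (n = 3), with the replicate number above each point, a line at the mean and a bar for the SD. Arntl is the gene whose groups do not overlap, with T09 at 5.21 to 9.17 CPM and vehicle at 10.4 to 18.7 CPM.

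Of the activating limb, Arntl stood lower with T09 while its partners Clock and Npas2 lay within overlapping ranges. Arntl (ENSMUSG00000055116) lies on chromosome 7 of GRCm38, 113207465 to 113314122, on the plus strand. It measured 18.7, 14.7, 10.4 and 12.2 CPM in vehicle replicates 1 to 4. In T09 replicates 1 to 3 it measured 9.17, 5.41 and 5.21 CPM. Every T09 library was below every vehicle library, and T09 replicate 1 was the nearest to them. The means were 14.0 ± 3.60 CPM (SD, n = 4) and 6.60 ± 2.23 CPM (SD, n = 3). This is a log2 fold change of -1.08 (SE 0.27), whose edgeR adjusted p of 0.0550 missed the threshold. Over 14 alternative settings the log2 fold change lay between -1.40 and -0.91 and the adjusted p between 0.00228 and 0.196. Without T09 replicate 1, the library in which macrophage and B cell markers were highest (0.0182% and 0.0778% of counts), edgeR called Arntl lower (log2 fold change -1.40, SE 0.25, adjusted p 0.0153), as it did 5.64% of all genes in either direction. The smooth muscle share, like Arntl, was lower in every T09 library than in any vehicle library, and its part in the Arntl values was not tested.

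Clock, the usual partner of BMAL1, measured 63.9, 50.6, 45.5 and 43.4 CPM with vehicle and 57.1, 53.7 and 50.5 CPM with T09. The T09 values all lay inside the vehicle range, with a difference of 0.08 on the log2 scale (SE 0.14, edgeR adjusted p 0.814). Npas2, which can take the place of CLOCK, measured 31.0, 22.5, 25.9 and 28.8 CPM with vehicle and 23.4, 26.5 and 21.8 CPM with T09. The groups overlapped, and the difference on the log2 scale was -0.18 (SE 0.14, edgeR adjusted p 0.561). The ratio of Arntl counts to Clock counts in the same library, which does not depend on how libraries are scaled, was 0.292, 0.292, 0.228 and 0.281 with vehicle. With T09 it was 0.161, 0.101 and 0.103, below every vehicle library.

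The period genes encode part of the repressor arm of the loop, and none of the 3 was called. Per3 (ENSMUSG00000028957, chromosome 4, 151003652 to 151044665, minus strand) measured 13.2, 22.3, 17.8 and 15.5 CPM with vehicle and 14.9, 30.8 and 40.1 CPM with T09. T09 replicates 2 and 3 exceeded every vehicle library, while T09 replicate 1 lay inside the vehicle range. The fibroblast marker share separated the same T09 libraries, on the lower side. Its part in the Per3 values, and in those of Ciart, Nr1d2, Cry2, Tef and Bhlhe40 given below, was not tested. The log2 fold change of Per3 was 0.73 (SE 0.30, edgeR adjusted p 0.241). Leaving out T09 replicate 1 gave 1.05 (SE 0.20, edgeR adjusted p 0.0198), and leaving out T09 replicate 3 gave 0.41 (SE 0.30, edgeR adjusted p 0.661). The adjusted p over the 14 alternatives ran from 0.0198 to 0.661.

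Per2 measured 32.1, 52.5, 36.2 and 48.6 CPM with vehicle and 38.9, 42.1 and 71.4 CPM with T09. T09 replicate 3 was the highest of all 7 and the other T09 libraries were inside the vehicle range. With a log2 fold change of 0.26 (SE 0.24) Per2 was not called (edgeR adjusted p 0.628), and the value was -0.064 without T09 replicate 3. Per1, the period gene that also responds to acute signals, measured 33.8, 41.8, 45.0 and 65.8 CPM with vehicle and 34.4, 48.4 and 44.3 CPM with T09. The T09 values lay inside the vehicle range, whose top was vehicle replicate 4. Per1 had a log2 value of -0.14 (SE 0.21, edgeR adjusted p 0.797), and of 0.073 without that library.

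Ciart, the BMAL1 repressor whose promoter holds 3 E-boxes, was the least abundant member with vehicle and had the widest range over all 7 libraries, 6.5-fold from lowest to highest. It is ENSMUSG00000038550, on chromosome 3, 95878503 to 95882251, on the minus strand. It measured 1.14, 2.99, 4.26 and 2.96 CPM with vehicle, from 22, 57, 67 and 55 counts. With T09 it measured 3.69, 7.40 and 6.33 CPM, from 78, 134 and 107 counts. T09 replicates 2 and 3 lay above every vehicle library and T09 replicate 1 lay inside the vehicle range. The log2 fold change of 1.03 (SE 0.40) was the largest positive value among the members and was not called (edgeR adjusted p 0.214).

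**Figure D2:**
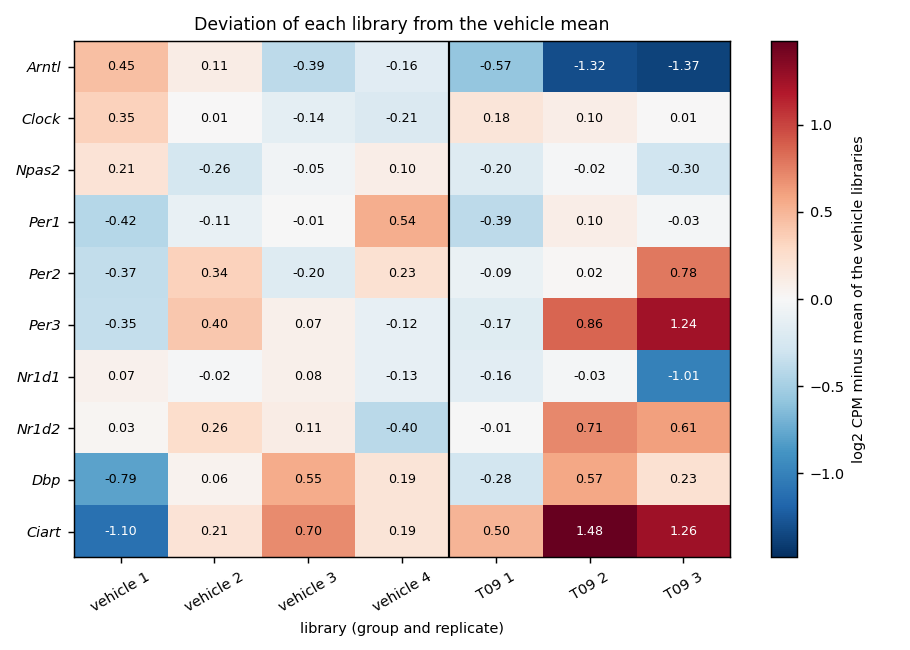
Heat map of log2 CPM minus the mean of the 4 vehicle libraries, for the 10 members (rows) in each of the 7 libraries (columns), red above and blue below the vehicle mean. In T09 replicates 2 and 3 Arntl is at -1.32 and -1.37 while Ciart is at 1.48 and 1.26, and vehicle replicate 1 has Ciart at -1.10 and Dbp at -0.79.

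The REV-ERB receptors, both repressors of Arntl, were not called, and the difference between the pair was not tested. Nr1d2 (REV-ERB beta) measured 65.8, 77.1, 69.9 and 48.9 CPM with vehicle and 64.1, 106 and 98.7 CPM with T09. T09 replicates 2 and 3 were above every vehicle library and replicate 1 was not. The share of all genes in this order was not computed. The order, here and in the other genes where it is given, is therefore not a result about the clock genes. On the log2 scale Nr1d2 differed by 0.45 (SE 0.19, edgeR adjusted p 0.259), between 0.30 and 0.65 over the alternatives. Nr1d1 (REV-ERB alpha) had the smallest coefficient of variation with vehicle, 6.5%, at 156, 147, 157 and 137 CPM. With T09 it measured 133, 146 and 74.2 CPM, so that the fold change (log2 -0.34, SE 0.20, edgeR adjusted p 0.431) rested mostly on T09 replicate 3. Without that library it was -0.093.

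The number of Nr1d1 counts per Nr1d2 count was 2.38, 1.91, 2.25 and 2.79 with vehicle and 2.08, 1.38 and 0.751 with T09. T09 replicate 3 was the library with fewer Nr1d1 than Nr1d2 counts. The Nr1d1 values carry a limit of counting: 8.55% of its annotated exon bases overlap exons of Thra on the opposite strand, and the use of strand in counting is not given. Thra itself lay at 91.4 to 105.7 CPM with T09 and 108 to 144 CPM with vehicle (log2 fold change -0.37, SE 0.12, edgeR adjusted p 0.126).

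Dbp, the output factor that acts on D-boxes, measured 35.9, 64.6, 90.9 and 71.0 CPM with vehicle and 51.4, 92.3 and 72.9 CPM with T09. The groups overlapped over most of their range, and vehicle replicate 1 was the lowest of all libraries. Its difference of 0.14 on the log2 scale (SE 0.29, edgeR adjusted p 0.853) became -0.066 without vehicle replicate 1 and -0.077 without T09 replicate 2. Of the annotated exon bases of Dbp, 18.0% overlap Sphk2 on the opposite strand. Sphk2 lay at 164 to 185 CPM with T09 and 188 to 249 CPM with vehicle (log2 fold change -0.26, SE 0.12, edgeR adjusted p 0.286).

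**Figure D3:**
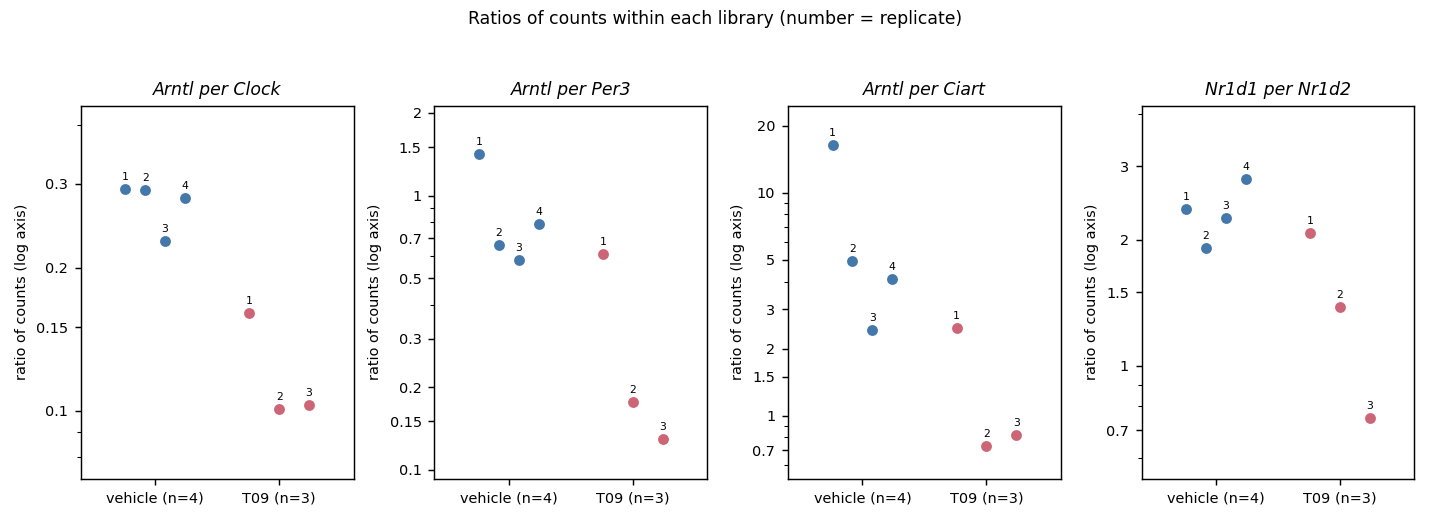
Ratio of counts of 2 clock genes within each library, on log axes, for vehicle (blue, n = 4) and T09 (red, n = 3), with replicate numbers above the points. Arntl per Clock does not overlap between groups, and for Arntl per Per3 and Arntl per Ciart T09 replicates 2 and 3 lie apart from T09 replicate 1, which is close to vehicle replicate 3.

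Set against its repressors within a library, Arntl covered a wide range. There were 1.42, 0.661, 0.584 and 0.785 Arntl counts per Per3 count with vehicle and 0.614, 0.176 and 0.130 with T09. Per Ciart count there were 16.4, 4.93, 2.43 and 4.11 Arntl counts with vehicle and 2.49, 0.731 and 0.822 with T09. In both ratios vehicle replicate 1 was the highest library, and T09 replicate 1 lay between the lowest and the highest vehicle library. Of the 10 members, 8 were inside the vehicle range in T09 replicate 1, 5 in T09 replicate 2 and 3 in T09 replicate 3. The same share over all genes was not computed, so these counts are not a result about the clock genes.

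Variation between mice was examined in 4 pairs of members, on log2 CPM over the 7 libraries with exact permutation tests, two-sided. Arntl and Dbp had r = -0.64 (exact permutation p = 0.120, adjusted over the 4 relations 0.239) and rho = -0.64 (exact permutation p = 0.139, adjusted 0.278). Without the 2 libraries farthest from the median of Arntl, T09 replicates 2 and 3, r was -0.57. Taken as deviations from the mean of their own group, with permutation within groups, the relation was r = -0.91 (exact permutation, adjusted p 0.0556), which also missed the threshold. Arntl with Nr1d1 had r = 0.62 (exact permutation p = 0.112, adjusted 0.239) and rho = 0.64 (exact permutation p = 0.139, adjusted 0.278), and r = 0.52 without the same 2 libraries. Within groups that r was 0.33.

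Arntl with Npas2 had r = 0.49 (exact permutation p = 0.270, adjusted 0.360) and rho = 0.54 (exact permutation p = 0.236, adjusted 0.314), with r = 0.50 without T09 replicates 2 and 3 and 0.16 within groups. Nr1d1 with Dbp had r = -0.14 (exact permutation p = 0.731, adjusted 0.731) and rho = 0 (exact permutation p = 1, adjusted 1), with r = -0.27 without T09 replicates 1 and 3 and -0.03 within groups. None of the 4 relations passed. By the peak times given above, Arntl runs opposite to Dbp and to Nr1d1, and r was negative with Dbp and positive with Nr1d1. By the same times Npas2 goes with Arntl, and Dbp with Nr1d1, where r was 0.49 and -0.14. Peak times do not set the sign of r between mice taken at an unstated hour. Each r over all libraries also holds the difference between the groups. Nothing about the timing of the clock is concluded from these signs.

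Per length of transcript, Nr1d1 was the most abundant member and Ciart the least. On the deposited FPKM scale the vehicle means were 86.4 ± 5.95 for Nr1d1, 55.0 ± 19.2 for Dbp and 20.9 ± 3.80 for Nr1d2 (SD, n = 4), and these neighbours did not overlap. Npas2 at 15.8 ± 2.20, Per2 at 14.1 ± 3.18, Per1 at 13.6 ± 3.97 and Clock at 10.5 ± 1.91 FPKM (SD, n = 4) formed a run in which each overlapped the next, and Npas2 overlapped Nr1d2. Arntl at 4.88 ± 1.25, Per3 at 4.15 ± 0.924 and Ciart at 3.04 ± 1.39 FPKM (SD, n = 4) lay below Clock with no overlap and overlapped one another in that order. With T09, Arntl was the lowest of the 10, at 2.25 ± 0.876 FPKM (SD, n = 3), below Ciart at 5.97 ± 1.82 FPKM and Per3 at 6.60 ± 2.69 FPKM. The FPKM of Arntl was computed from the listed length and those of the other 9 members were not. With the listed lengths Per1 moved up to the fourth place and Npas2 down to the sixth with vehicle. The T09 means by listed length were 2.25 for Arntl, 2.91 for Ciart and 4.61 for Per3. Arntl thus stayed the lowest, but closer to Ciart than on the deposited scale.

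**Figure D4:**
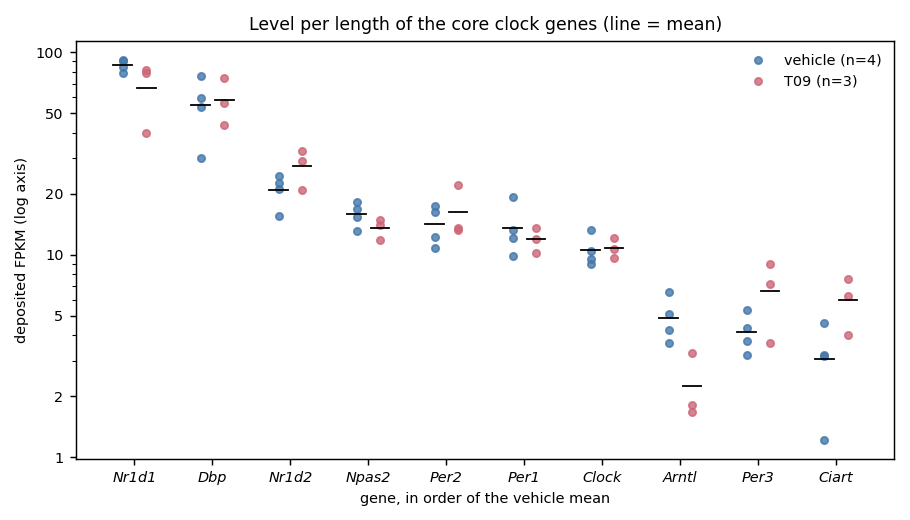
Deposited FPKM (log axis) of each core clock gene, in order of the vehicle mean, for vehicle (blue, n = 4) and T09 (red, n = 3) libraries, with a line at each mean. Arntl is the eighth of 10 with vehicle and the lowest with T09.

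Other genes of the clock gave 1 call among 21 tested of 23 listed, against the 4.31% of all genes. It was Noct, which encodes nocturnin, a protein with a strong daily rhythm that in mouse intestine takes part in lipid absorption. Noct (ENSMUSG00000023087, chromosome 3, 51224447 to 51251644, plus strand) measured 147, 170, 179 and 210 CPM with vehicle and 100, 103 and 124 CPM with T09, with no overlap. It fell by 0.69 on the log2 scale (SE 0.14, edgeR adjusted p 0.0230). The call was lost without vehicle replicate 3 (adjusted p 0.0643) and without T09 replicate 2 (adjusted p 0.0975), with a range of 1.44e-04 to 0.0975 over the alternatives.

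The other listed genes were not called, and their log2 fold changes were above 0 for 10 and below 0 for 11 of the 21 tested, Noct included, with a median of -0.01. Of the cryptochromes, the partners of PER, Cry1 averaged 16.4 ± 2.66 CPM in vehicle mice (SD, n = 4) and 14.7 ± 3.24 CPM in T09 mice (SD, n = 3), and Cry2 17.1 ± 1.33 and 19.9 ± 6.11 CPM. Their log2 fold changes were -0.16 (SE 0.19) and 0.22 (SE 0.20). Rora, which encodes an activator of Arntl, was scarce, at 1.37 ± 0.470 CPM in vehicle mice (SD, n = 4) and 0.893 ± 0.542 CPM in T09 mice (SD, n = 3), with a log2 fold change of -0.61 (SE 0.47).

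Among the factors that share D-boxes with DBP, Tef lay at 88.6, 113, 127 and 95.5 CPM with vehicle and 105, 155 and 155 CPM with T09. T09 replicates 2 and 3 exceeded every vehicle library and replicate 1 did not (log2 fold change 0.38, SE 0.17, edgeR adjusted p 0.274). Hlf, of the same family, stood at -0.22 on the log2 scale (SE 0.19), and the D-box repressor Nfil3 had a log2 fold change of -0.0058 (SE 0.31); neither was called. The E-box repressor Bhlhe40 (DEC1) lay at 76.0 ± 18.1 CPM with vehicle and 101 ± 20.1 CPM with T09 (log2 fold change 0.41, SE 0.20). It stood at 112 and 114 CPM in T09 replicates 2 and 3, above the vehicle maximum of 91.7 CPM, and at 77.9 CPM in T09 replicate 1. Bhlhe41 (DEC2) was under 1 CPM in every library (log2 fold change -0.29, SE 0.47).

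**Figure D5:**
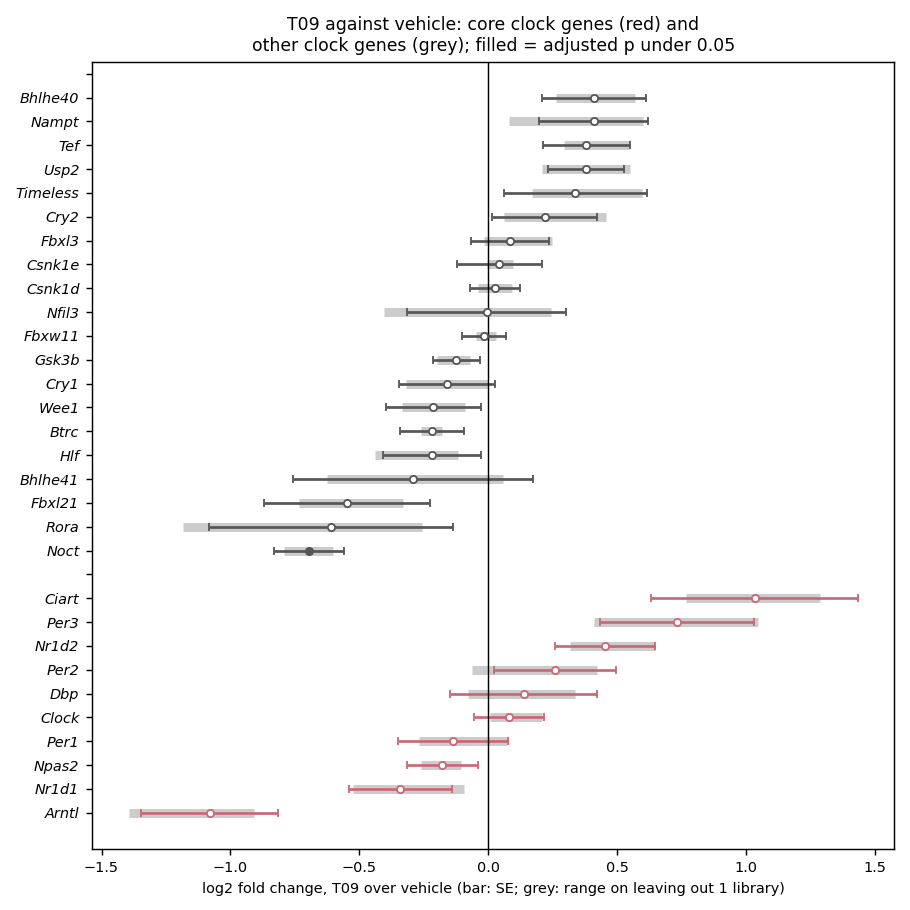
Log2 fold change of T09 over vehicle for the 10 core clock genes (red) and 20 of the 21 other clock genes tested (grey), with the SE as a bar, the range on leaving out each library in turn as a grey band, and filled points for an adjusted p under 0.05. Noct is the filled point, and its call was lost on leaving out vehicle replicate 3 or T09 replicate 2. Arntl (-1.08) and Ciart (1.03) stand at the ends of the core genes.

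Outside the clock lists, 12774 genes with a symbol and a mean of at least 1 CPM were ranked by Pearson's r of their log2 CPM with a member over the 7 libraries, as a description. The genes most like Arntl were Atxn7l1, Gpatch2l, Fam189a2 and Cnr1, a cannabinoid receptor gene, with r between 0.98 and 0.99. A high r did not mean a change of the same size. The log2 fold changes of Atxn7l1, Gpatch2l and Fam189a2 were -0.27, -0.35 and -0.66, none called, against -1.08 for Arntl. Cnr1 ran from 1.15 to 1.92 CPM with vehicle and from 0.533 to 0.756 CPM with T09 (log2 fold change -1.27, edgeR adjusted p 0.0714). The genes most like Dbp were Avpi1, Tspan31, 2410006H16Rik and Hacd1, with r between 0.97 and 0.99. Avpi1 was lowest in vehicle replicate 1, at 2.49 CPM, and highest in T09 replicate 2, at 5.25 CPM, the same extremes as Dbp. In all, 32 genes had r over 0.95 with Arntl and 20 with Dbp.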

How the data were processed

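RNA of 7 duodenum samples, 1 per mouse, was sequenced after poly-T selection and random priming, per the labels' protocols. The authors deposited 1 table with raw read counts per Ensembl gene and FPKM, per the file headers. Tools named, per the submitters' processing notes, are HTSeq 0.6.1, DESeq 1.18.0, Bowtie2 2.2.3 and TopHat2 2.0.12. What each did, the genome build, the annotation, the strand setting and the treatment of shared reads are not given in sources used here. Of 47069 genes, 39685 have exactly their GENCODE M21 (GRCm38) coordinates. Deposited FPKM served only to set levels between genes, beside levels from the gene length that the authors list.

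The count analysis used edgeR 4.0.16 in R 4.3.3: filterByExpr, TMM and the quasi-likelihood F test. Benjamini-Hochberg adjustment covered all 14250 genes that passed the filter, with a threshold of 0.05. The SE is the log2 fold change divided by the square root of F. CPM used TMM-scaled library sizes, and log2 CPM a prior count of 2. The procedure was tested on simulated data, in 3 draws with 200 genes changed. It called 20% of the genes changed 1.5-fold, 54.7% of those changed 2-fold and 88% of those changed 4-fold. Of all its calls there, 5.85% were false. A member that was not called may therefore still have changed. Alternatives were DESeq2 1.42.0, limma-voom (limma 3.58.1), 2 other scalings, 2 other filters, a replicate block and leaving out each library. Correlations were tested in Python 3.11.15 over all 5040 pairings. The members, lists and named genes were chosen with earlier results of these data known. Named were all members, 9 other clock genes and any called, of which 1 is not reported here, the 4 genes most like Arntl and the 4 most like Dbp. The rule also named Abca1, an LXR target like Srebf1, which averaged 90.4 ± 21.5 CPM in vehicle mice (SD, n = 4) and 481 ± 28.0 CPM in T09 mice (SD, n = 3). Usp2, Thra and Sphk2 were added after their values were seen, the last pair for their overlap with members.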

Additional observations from a re-analysis of the deposited data

Results flagged for a closer look

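Among the 4 vehicle libraries, 29 sets of values were examined (10 members, 10 other clock genes and 9 marker lists). In 1 set a library stood apart by Dixon's criterion for its gap to the nearest of the others, where chance gives about 1.45. Pancreatic acinar markers took 0.0515% of counts in vehicle replicate 1, against 0.00135% or less in the other vehicle libraries. Of all 7 libraries, that one also had the highest Arntl, Clock and Npas2 and the lowest Per1, Per2, Per3, Dbp and Ciart. How often it stood at an end over all genes was not computed, and the part of acinar RNA in those values was not tested. No clock gene was set apart in this way.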

How the results depend on the processing

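The count of 614 genes (205 higher, 409 lower) became 1091 (372 and 719) with DESeq2 and 280 (113 and 167) with the replicate block, which also leaves out vehicle replicate 4. On leaving out 1 library it ran from 251 (T09 replicate 3) to 819 (T09 replicate 1), with 90 to 296 higher and 161 to 523 lower. It was 280, 285 and 303 when vehicle replicate 3, vehicle replicate 4 and T09 replicate 2 were left out, and the lower genes were 258 when vehicle replicate 1 was. The 0 clock members became 1, Arntl, called lower, with no filter (adjusted p 0.0227), DESeq2 (adjusted p 0.00228) and the replicate block (adjusted p 0.0311). They ran from 0 to 2 on leaving out 1 library (0 to 1 higher, 0 to 1 lower), the 2 being Arntl and Per3 without T09 replicate 1. Other clock genes called ran from 0 to 2, the second being Usp2 without T09 replicate 1 (adjusted p 0.0242). Uncalled log2 fold changes crossed 0 on leaving out 1 library for Per1 (-0.27 to 0.073, and 0.069 with the replicate block), Per2 (-0.064 to 0.42), Dbp (-0.077 to 0.34), Nfil3 (-0.40 to 0.24) and Bhlhe41 (-0.62 to 0.058). The r of Nr1d1 with Dbp ran from -0.30 to 0.15 in the same way, at 0.15 without vehicle replicate 1 and 0.0059 without T09 replicate 3. The causes were not tested. Same-numbered libraries share only a number: their deviations from the group means correlated at 0.26, 0.03 and -0.03. No direction of a member changed under the other 2 scalings, and the median of all genes moved from 0.02 to -0.03 with library size alone. Ciart, with 22 to 134 counts a library, is the member that depth limits most.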
